A study of Canis lupus familiaris with 12 samples.

Results

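Molecular chaperones are proteins that help other proteins fold, keep unfolded chains from clumping and take part in assembling complexes. Cells keep separate sets of them: HSP70, HSP90, the TRiC chaperonin and prefoldin work in the cytosol, protein disulfide isomerases and their partners work in the endoplasmic reticulum (ER), and HSP60 with HSP10 works in mitochondria. Co-chaperones such as J-domain proteins, BAG proteins and STIP1 bring clients to HSP70 and HSP90 and time their cycles of ATP use. The heat shock transcription factor HSF1 is known for raising the cytosolic set when unfolded proteins build up.

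The genes described here are those whose symbol belongs to the heat shock, J-domain (DNAJ), TRiC (CCT, TCP1), BAG, protein disulfide isomerase (PDIA), FK506-binding (FKBP), cyclophilin (PPI), prefoldin or heat shock factor families, or is STIP1, AHSA1 or CHORDC1, with a mean of at least 0.5 TPM over all libraries. TPM, the share of a library's transcripts on a fixed scale, is corrected for gene length and compares levels between genes. HSP90B1, PDIA3, HSPB1, HSPB8 and HSPA8 match these families and were set aside by name. Of 94 matching rows, 5 were set aside in this way and 13 lay below the level, which left 76 of the 31121 gene IDs. The 76 members carry 73 symbols, since HSF4, HSPA14 and FKBP1A each have 2 IDs. By the known place of the protein, 49 members were assigned to the cytosol and nucleus, 18 to the ER and 8 to mitochondria; HSF2BP, a testis protein named for binding HSF2, matched by name only. Just inside the level were DNAJC22 at 0.649, CCT6B at 0.814 and PDIA2 at 1.27 TPM, and just outside it DNAJB5 at 0.294, DNAJB13 at 0.0983 and HSPA12A at 0.0608 TPM. HSP90AA1, HSP90AB1, HSPH1, HSPA5, HSPA9, HSF2, CCT4, CCT5, CCT6A, PFDN4, DNAJA1, DNAJA2, BAG3, PDIA4 and FKBP5 were not analysed here, because no ID in the tables used carries these symbols.

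The cells were MDCK, an epithelial line from dog kidney, kept in DMEM with fetal bovine serum. Groups T1 and T2 received 25 µM Yoda1, a synthetic agonist of Piezo1 (a cation channel gated by membrane stretch), for 12 h and 24 h; C1 is the 12 h control and C2 the 24 h control, and no source used here states what the controls received in place of Yoda1. Each group has 3 libraries, and no label ties a replicate to a culture of its own; the p-values thus rest on library-to-library spread that may be technical.

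Total counts ran from 20709218 to 38889592 per library, and no 2 libraries of a group agreed within sampling noise. Agreement was poorest within C2, where the chi-square per gene of library pairs was 46.8 to 89.7, while pairs in the other groups gave 5.21 to 22.9. All 6 epithelial markers found, of 12 looked for, were above 1 TPM, while the fibroblast markers LUM and DCN were at 0 in every library. Of 8 fibroblast markers, 1 exceeded 1 TPM, as did 1 of 4 endothelial markers. Among immune markers PTPRC stood at 0.0075 TPM, but 1 of 2 IDs named CD79A stood at 764 TPM. Summed, the epithelial markers gave 2172 to 2479 TPM in the C1 libraries and 1680 to 1891 TPM in T1, and at 24 h 2298 to 2449 TPM in C2 and 1420 to 1576 TPM in T2. With Yoda1, 3 of the 6 epithelial markers fell at 12 h and 5 at 24 h. No fibroblast marker passed the test at either time among 3 tested, 1 of 2 endothelial markers (VWF) fell at 24 h, and the 1 immune marker tested passed at neither time. In bulk RNA, fewer cells of a type and less RNA per cell cannot be told apart, and the part of these marker differences in the results below was not tested.

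The chaperone genes spanned a wide range of levels. PPIB, an ER cyclophilin that isomerizes proline bonds, was highest at a mean of 1009 TPM. PPIA, its cytosolic relative, followed at 924 TPM, and HSPD1, the mitochondrial HSP60, at 788 TPM. CCT7 and CCT8, subunits of the TRiC chaperonin that folds actin and tubulin, stood at 658 and 654 TPM. In all, 30 members reached 100 TPM and 2 lay below 1 TPM. The lowest was DNAJC22, at 0.649 TPM.

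**Figure D1:**
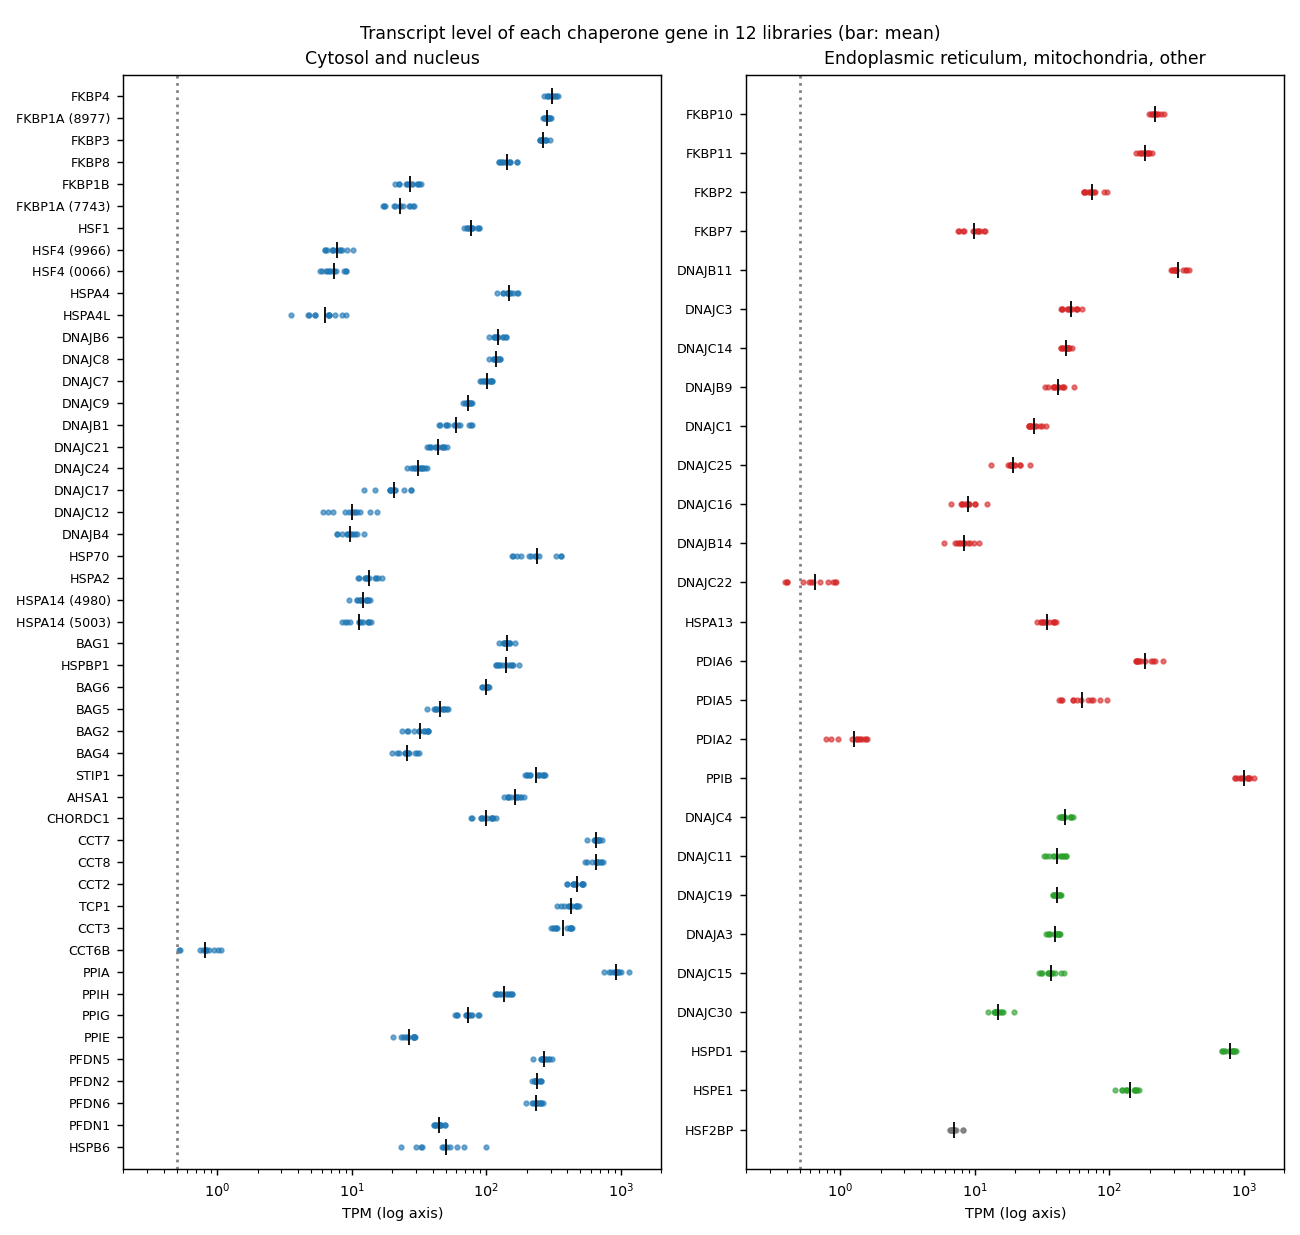
Deposited TPM of each of the 76 members, on a log axis, with 1 point per library (12 points) and a bar at the mean; the dotted line marks 0.5 TPM, and the digits after a symbol shared by 2 IDs are the last of each ID. Cytosolic and nuclear members are on the left in blue and ER (red), mitochondrial (green) and other (grey) members on the right; PPIB at 1009 TPM is the highest and DNAJC22 at 0.649 TPM the lowest.

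Members differed in how much they varied between libraries. The coefficient of variation of TPM over all 12 libraries had a median of 11.3%, with 27 members under 10% and 9 over 20%. It includes differences between the 4 groups, and its value over all genes is not given here. BAG6, which guards hydrophobic proteins in the cytosol, varied least at 3.9%. HSPB6, a small heat shock protein best known from muscle, varied most at 41.6%, and HSP70 varied by 31.3%.

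Relative to one another, the summed cytosolic and ER sets differed between control and Yoda1 libraries at both times. The cytosolic and nuclear sum was 2.99, 2.88 and 2.84 times the ER sum in the C1 libraries and 3.83, 3.55 and 3.76 times in T1. At 24 h the ratio was 2.96, 3.17 and 3.14 in C2 and 3.78, 3.75 and 3.71 in T2. Every Yoda1 library therefore had a higher ratio than every control library. The ER sum went from 2550 ± 64.2 TPM (SD, n = 3) in C1 to 2178 ± 76.9 in T1, and from 2382 ± 44.5 in C2 to 2139 ± 53.9 in T2. The cytosolic sum went from 7401 ± 25.9 to 8079 ± 43.6 TPM at 12 h and from 7356 ± 269 to 8008 ± 133 TPM at 24 h. These sums lean on the most abundant genes and are descriptions with no test. On the log2(TPM + 1) scale the median change over all genes tested was itself 0.064 at 12 h and 0.026 at 24 h. The mitochondrial sum was 1106 ± 85.9 TPM in C1, 1182 ± 86 in T1, 1109 ± 116 in C2 and 1204 ± 16.4 in T2, with overlapping libraries at each time.

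The first comparison asks which of these genes had changed after 12 h of Yoda1. At 12 h, 2 cytosolic members rose, STIP1 and CCT3, and 4 ER members fell, PDIA6, PDIA5, DNAJB11 and PPIB. No mitochondrial member passed the test. A member was called where edgeR's quasi-likelihood test gave a Benjamini-Hochberg adjusted p under 0.05 over all 14169 genes tested. By this rule 6 of 76 members were called, or 7.89%, while 6.99% of all genes were, so the members as a whole were called about as often as genes in general. In each direction 3.01% of all genes were called higher and 3.97% lower. The median log2 fold change was 0.07 over the 49 cytosolic and nuclear members, -0.24 over the 18 ER members and 0.02 over the 8 mitochondrial members, beside 0.01 over all genes. Scaled by library size alone the split of calls was 4 higher and 3 lower. Of all called genes 59.4% were then higher, against 43.1% in the reported fit. The cytosolic median stayed above 0 and the ER median below 0 under each of the 4 scalings tried. A change of scaling moves most genes together, so this is no separate support. Over all genes the median was 0.046 with library size and 0.064 with log2(TPM + 1). It was 0.11 and 0.14 over the cytosolic members and -0.20 and -0.13 over the ER members. All 76 members passed the filter on low counts.

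The number of 12 h calls changed with the library left out, while the log2 fold changes of the called members kept their direction. Over the fits that leave out 1 library, these ran from 0.27 to 0.31 for STIP1 and 0.27 to 0.29 for CCT3. For the ER members they ran from -0.35 to -0.32 (DNAJB11), -0.59 to -0.49 (PDIA6), -0.86 to -0.55 (PDIA5) and -0.46 to -0.28 (PPIB). The share of all genes called in those fits is not given here. Without C1 replicate 1, 2 or 3, or without T1 replicate 1 or 3, no member was called higher and 1, PDIA6, was called lower. Without T1 replicate 2, or without C2 replicate 1, which enters only through the shared spread, 4 members were called higher and 5 lower. Same-numbered C1 and T1 libraries deviated together, a pairing that rests on these same data and on no label. A fit of these 6 libraries with the replicate number as a block called 26 members, 13 higher and 13 lower, or 34.2%. That fit called 32.3% of all genes, 16.5% higher and 15.8% lower, again close to the members' share. All 6 calls above were among the 26. By place, the block fit called 11 cytosolic members higher and 4 lower, 8 ER members lower and none higher, and 2 mitochondrial members higher and 1 lower. It leaves 2 residual degrees of freedom, and calls that rest on it are named as such below. Since the pairing was taken from the data, those calls are no separate support.

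The second comparison asks the same after 24 h. Then 9 cytosolic and nuclear members rose: HSP70, DNAJB1, CCT3, CHORDC1, PPIH, TCP1, CCT2, STIP1 and DNAJB6. DNAJC11, a mitochondrial J-domain protein, also rose. Lower at 24 h were 2 cytosolic members, HSPB6 and FKBP8, and 2 ER members, PDIA5 and DNAJC3. In all 14 of 76 members were called, or 18.4%, beside 18.6% of all genes, of which 8.96% were called higher and 9.61% lower. The medians were 0.11 for the cytosol, -0.13 for the ER and 0.02 for mitochondria, beside -0.01 over all genes. Library size alone gave 10 higher and 2 lower. Of all called genes 57.1% were then higher, against 48.3% in the reported fit. Without C2 replicate 3, T2 replicate 2 or T2 replicate 3 only HSP70, DNAJB1, CCT3 and DNAJC11 were called higher, and these 4 were called in each of the 12 fits that leave out 1 library. STIP1 was kept in 7 of those 12 fits, PPIH in 5 and DNAJC3 in 4. The lower calls numbered 1 without C2 replicate 3 or T2 replicate 3, 0 without T2 replicate 2, and 2 without T1 replicate 3 or T2 replicate 1. The share of all genes called in the fits that leave out 1 library is not given here. In the 6 libraries of T2 and C2 alone, HSP70, CCT3 and DNAJC11 were called higher and PDIA5 lower, beside 8.15% of all genes called. With the replicate block in those libraries only HSP70 was called, beside 2.28% of all genes.

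**Figure D2:**
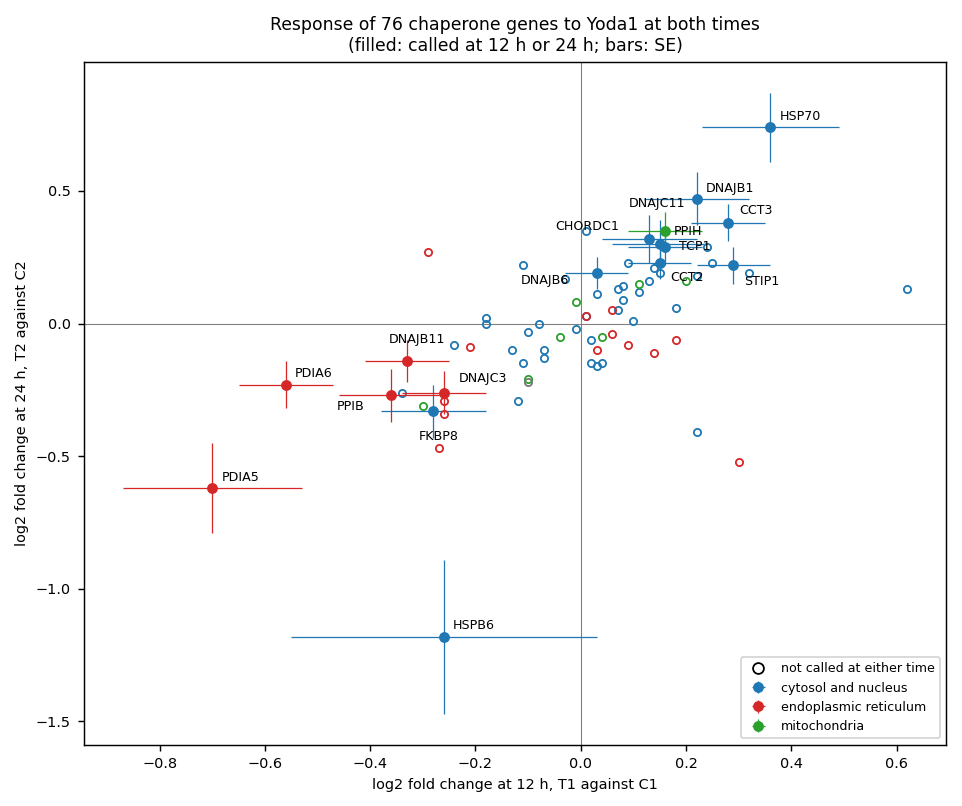
Log2 fold change of the 76 members at 12 h (T1 against C1, horizontal) and 24 h (T2 against C2, vertical), coloured by place, with filled points and SE bars for the 17 members called at either time and open points for the rest (HSF2BP, not called, in grey). The cytosolic calls lie mostly at the upper right, led by HSP70 at 0.36 and 0.74, the 5 ER calls lie at the lower left, and HSPB6 lies far down at -0.26 and -1.18.

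The directions at both times differed between the compartments. Of 49 cytosolic and nuclear members, 28 were above 0 at both times and 13 below 0 at both. Of 18 ER members, 2 were above and 9 below, and of 8 mitochondrial members 3 were above and 3 below. Over all genes tested 35.1% were above at both times and 35.9% below. Libraries of control and Yoda1 did not overlap for 15 higher and 4 lower cytosolic members at 12 h and for 14 higher and 5 lower at 24 h. For ER members the counts were 0 higher and 7 lower at each time. Among all genes, 16.4% had T1 wholly above C1 and 16.3% wholly below it, and 16.6% and 16.2% did so for T2 and C2. The called members shared by the 2 times were CCT3, STIP1 and PDIA5, and 17 were called at either.

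**Figure D3:**
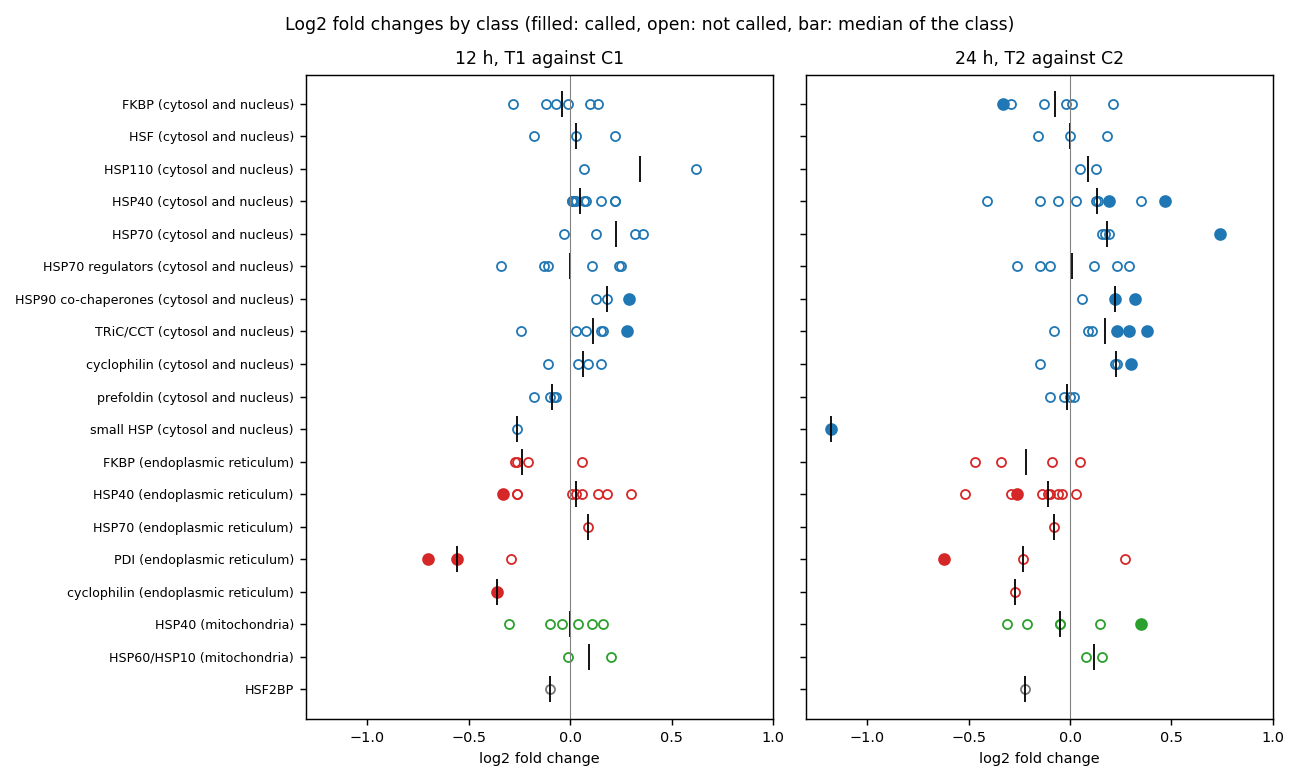
Log2 fold changes of the members by class and compartment at 12 h (left) and 24 h (right), each point 1 member, filled where called and open where not, with a bar at the median of the class. TRiC, cytosolic HSP70 and HSP90 co-chaperone medians lie above 0 at both times, and those of ER disulfide isomerases, cyclophilin (PPIB alone) and FKBP lie below 0. The median of the 9 ER J-domain members is 0.03 at 12 h and -0.11 at 24 h. Cytosolic FKBP (-0.04 and -0.07) and prefoldin (-0.09 and -0.01) medians also lie below 0, as does HSPB6.

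The HSP70 family comes first among the cytosolic chaperones, as ATP-driven clamps that hold short stretches of unfolded protein. The member listed under the family's own name, HSP70, averaged 237 TPM, and the symbol does not say which gene of the family it is. It stood at 253, 251 and 213 CPM in C1 and at 304, 286 and 328 CPM in T1; CPM is a gene's count relative to the library's total, here after scaling by the trimmed mean of M values (TMM), and is not corrected for length. In the 24 h groups it stood at 217, 290 and 333 CPM in C2 and at 461, 457 and 489 CPM in T2. The Yoda1 libraries lay above their controls at both times, by a wide gap at 24 h, and the C2 libraries were spread. HSP70 rose 1.67-fold at 24 h (log2 fold change 0.74, SE 0.13, adjusted p = 0.0023). At 12 h its log2 fold change was 0.36 with an SE of 0.13, not called in the fit of all libraries (adjusted p = 0.11), and it was called in the 6 libraries of T1 and C1 alone, both without the block (0.35, adjusted p = 0.029) and with it (0.35, adjusted p = 0.017), and in the fit without C2 replicate 1 (adjusted p = 0.02). RSEM, which the processing notes name, divides reads between near-identical copies, so counts of HSP70 may share reads with other genes of the family.

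The other HSP70-type members were lower in level. HSPA2, known from the testis, averaged 13.5 TPM with log2 fold changes of -0.03 at 12 h and 0.17 at 24 h. The 2 IDs of HSPA14, a partner of the ribosome, averaged 12.1 and 11.4 TPM. The second of these was called at 12 h with the block (0.30, adjusted p = 0.026), with DESeq2 and with library size scaling, but had an adjusted p of 0.067 in the fit of all libraries. HSPA4, a nucleotide exchange factor of the HSP110 type, averaged 147 TPM and had log2 fold changes of 0.07 and 0.05. HSPA4L, its paralogue at 6.33 TPM, stood at 10.8, 8.48 and 10.4 CPM in C1 and at 19, 11.9 and 14.5 CPM in T1. Its 12 h log2 fold change of 0.62 (SE 0.17) was the highest of any member then, with groups that did not overlap and an adjusted p of 0.051, and it was called with the block (0.59, adjusted p = 0.00054). It was also called with DESeq2 (adjusted p = 0.016), library size scaling (adjusted p = 0.037) and no filter (adjusted p = 0.046), and without C2 replicate 1, 2 or 3 or T1 replicate 2. In C2 it had already been at 16.4, 14.8 and 12.3 CPM, and its 24 h log2 fold change was 0.13.

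Among 10 cytosolic and nuclear J-domain proteins, which deliver clients to HSP70 and trigger its ATP hydrolysis, 2 rose at 24 h and none passed at 12 h, when all 10 lay between 0.01 and 0.22. The 24 h calls are 20% of this class, close to the 18.6% of all genes called. DNAJB1, the classic heat-inducible partner of HSP70, stood at 65.3, 61.7 and 64.3 CPM in C1 and 71.1, 74.1 and 76.9 CPM in T1. The 24 h values were 57.4, 79.6 and 69.1 CPM in C2 and 90.1, 97.9 and 97.6 CPM in T2. Control and Yoda1 libraries were apart at both times. DNAJB1 rose 1.39-fold at 24 h (log2 fold change 0.47, SE 0.1, adjusted p = 0.0066); at 12 h the log2 fold change was 0.22 (adjusted p = 0.21), called with the block (0.21, adjusted p = 0.0084). DNAJB6, which holds back aggregation and averaged 123 TPM, stood at 111, 118 and 112 CPM in C2 and 124, 129 and 135 CPM in T2. The T2 libraries were all higher, the difference was small (0.19, SE 0.06, adjusted p = 0.048), and the call was kept in only 2 of the 12 fits that leave out 1 library. DNAJC8, a splicing-associated member at 118 TPM, had log2 fold changes of 0.02 and -0.06. The remaining 7 (DNAJC7, DNAJC9, DNAJC21, DNAJC24, DNAJC17, DNAJC12 and DNAJB4) ran from -0.41 for DNAJC12 to 0.35 for DNAJC17 at 24 h, none called.

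The class of HSP70 regulators held BAG1, BAG2, BAG4, BAG5, BAG6 and HSPBP1. Most of these make HSP70 release its nucleotide or bind its ATPase domain. The class had values on both sides of 0, and none was called at either time in the fit of all libraries. BAG1 stood at 279, 268 and 275 CPM in C1 and 253, 248 and 248 CPM in T1. The T1 libraries were all lower, with a log2 fold change of -0.13 (SE 0.08, adjusted p = 0.35; with the block -0.14, adjusted p = 0.041). HSPBP1 had log2 fold changes of -0.34 (adjusted p = 0.071) at 12 h and -0.26 (adjusted p = 0.1) at 24 h, with groups apart both times, and was called lower at 12 h with the block (-0.35, adjusted p = 0.00012). BAG2 and BAG4 had log2 fold changes of 0.24 and 0.25 at 12 h, called with the block (adjusted p = 0.014 and 0.0021), and of 0.29 and 0.23 at 24 h.

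HSP90 matures kinases and steroid receptors, and 3 of its co-chaperones were measured. STIP1, the adaptor that hands clients from HSP70 to HSP90, stood at 234, 240 and 229 CPM in C1 and at 294, 284 and 283 CPM in T1. Its 24 h levels were 243, 273 and 254 CPM in C2 and 285, 304 and 312 CPM in T2. The Yoda1 libraries were above the controls at both times. STIP1 rose 1.22-fold at 12 h (log2 fold change 0.29, SE 0.07, adjusted p = 0.021) and 1.17-fold at 24 h (0.22, SE 0.07, adjusted p = 0.033). CHORDC1, which binds HSP90, stood at 117, 105 and 95.7 CPM in C2 and at 124, 135 and 138 CPM in T2, with all T2 libraries higher. It rose at 24 h (0.32, SE 0.09, adjusted p = 0.031), while at 12 h its value was 0.13. AHSA1, which speeds HSP90's ATPase, had log2 fold changes of 0.18 (adjusted p = 0.31; with the block 0.18, adjusted p = 0.012) and 0.06.

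TRiC is a ring chaperonin in which different subunits sit side by side. TCP1, CCT2, CCT3, CCT7 and CCT8 averaged 371 to 658 TPM, so the highest was 1.77 times the lowest. CCT6B, a testis form, stood at 0.814 TPM. CCT3 was the lowest of the 5 abundant subunits in all 12 libraries, and CCT7 or CCT8 the highest.

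CCT3 stood at 466, 477 and 464 CPM in C1 and at 572, 561 and 572 CPM in T1. At 24 h it stood at 423, 460 and 462 CPM in C2 and at 554, 608 and 593 CPM in T2. Every Yoda1 library exceeded every control library. CCT3 rose 1.21-fold at 12 h (log2 fold change 0.28, SE 0.07, adjusted p = 0.025) and 1.31-fold at 24 h (0.38, SE 0.07, adjusted p = 0.0022).

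TCP1 stood at 385, 406 and 358 CPM in C2 and 449, 478 and 479 CPM in T2. CCT2 stood at 460, 458 and 429 CPM in C2 and 509, 535 and 532 CPM in T2. For both genes the 2 groups were apart. TCP1 rose by 0.29 (SE 0.07, adjusted p = 0.013) and CCT2 by 0.23 (SE 0.06, adjusted p = 0.027) on the log2 scale at 24 h. At 12 h their values were 0.16 and 0.15, called with the block (adjusted p = 0.026 and 0.043) but not in the fit of all libraries (0.19 and 0.18). CCT7 and CCT8 were not called at either time, with log2 fold changes of 0.03 and 0.08 at 12 h and 0.11 and 0.09 at 24 h.

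The make-up of the subunit transcripts, as shares of the summed TPM of these 5 genes, differed slightly between groups. CCT3 made up 13.3% ± 0.212 (SD, n = 3) in C1 and 14.9% ± 0.0706 in T1, and 13.6% ± 0.505 in C2 and 15.5% ± 0.157 in T2. CCT7 made up 26.8% ± 0.908 in C1 and 24.9% ± 0.537 in T1, and 26.2% ± 2.98 in C2 and 24.5% ± 0.662 in T2. The sum of the 5 was 2494, 2333 and 2506 TPM in C1 and 2892, 2651 and 2818 in T1, then 2294, 2462 and 2236 in C2 and 2724, 2753 and 2770 in T2. The Yoda1 libraries were higher at both times.

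Prefoldin, which hands newly made actin and tubulin to TRiC, did not share these calls. PFDN5, PFDN2, PFDN6 and PFDN1 averaged 44.5 to 269 TPM and had log2 fold changes of -0.18 to -0.07 at 12 h and -0.1 to 0.02 at 24 h. PFDN2 stood at 57.5, 65 and 59.5 CPM in C1 and 51.3, 57.6 and 51.7 CPM in T1, which overlap by a narrow margin. Its value of -0.18 had an adjusted p of 0.2, and was called lower with the block (adjusted p = 0.018). PFDN5, the highest of the 4, had values of -0.1 and -0.03.

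Among the prolyl isomerases of the cytosol and nucleus, PPIH, a cyclophilin of the spliceosome, stood at 30.5, 29.5 and 32.2 CPM in C2 and at 33.6, 40.7 and 39.4 CPM in T2. The T2 libraries were all higher, and PPIH rose by 0.30 on the log2 scale (SE 0.09, adjusted p = 0.039). PPIA, the abundant cyclophilin A, ran from 407 to 685 CPM across the 12 libraries with overlapping groups and log2 fold changes of 0.04 and -0.15. PPIG and PPIE, also nuclear, had 24 h values of 0.23 and 0.22, neither called.

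FKBP8, an isomerase anchored in membranes facing the cytosol, stood at 179, 174 and 210 CPM in C2 and at 148, 148 and 152 CPM in T2. All T2 libraries were lower, and FKBP8 fell by 0.33 on the log2 scale (SE 0.1, adjusted p = 0.044), a call kept in 6 of the 12 fits that leave out 1 library. At 12 h its value was -0.28 (adjusted p = 0.13; with the block adjusted p = 0.00066). FKBP4, the steroid receptor co-chaperone of HSP90 at 307 TPM, had values of 0.1 and 0.01. FKBP1A, the binding partner of FK506 and rapamycin, had -0.07 and -0.13 for its more abundant ID at 284 TPM.

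HSPB6 was the only small heat shock protein among the members. It stood at 12.5, 12.6 and 14.1 CPM in C1, 10.1, 12.1 and 10.5 in T1, 7.41, 21.9 and 16.2 in C2 and 7.3, 5.6 and 7.16 in T2. The C2 libraries spread widely and the lowest of them lay barely above T2. HSPB6 fell 2.26-fold at 24 h (log2 fold change -1.18, SE 0.29, adjusted p = 0.017), the only called member past 2-fold. The call was lost without C2 replicate 3, T2 replicate 2 or T2 replicate 3, and with limma voom (-1.02, adjusted p = 0.06); the log2 fold change was -1.51 without C2 replicate 1 and -0.82 without C2 replicate 2.

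HSF1 itself, the factor that drives heat shock genes, averaged 77.6 TPM. It stood at 84.1, 93.6 and 79.6 CPM in C1 and 81.7, 98.2 and 83.3 CPM in T1, then at 75.9, 94.3 and 97.2 CPM in C2 and 74.4, 80.9 and 83.5 CPM in T2. The groups overlapped at both times, with log2 fold changes of 0.03 (SE 0.11, adjusted p = 0.89) and -0.16 (SE 0.11, adjusted p = 0.31). Transcript level does not report the activity of this factor, which is set largely by its release from chaperones and its trimerization. The 2 IDs of HSF4, known from the lens, averaged 7.76 and 7.32 TPM and were not called.

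In the ER, the protein disulfide isomerases catalyse the disulfide bonds of secreted and membrane proteins. PDIA6 stood at 656, 643 and 739 CPM in C1 and at 452, 477 and 456 CPM in T1. At 24 h it stood at 621, 531 and 513 CPM in C2 and at 441, 479 and 502 CPM in T2. The gap was wide at 12 h and narrow at 24 h. PDIA6 fell 1.47-fold at 12 h (log2 fold change -0.56, SE 0.09, adjusted p = 0.0042), the only 12 h call among members that was kept in all 12 fits that leave out 1 library. At 24 h its value was -0.23 (SE 0.09, adjusted p = 0.09).

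PDIA5 stood at 78.3, 81.2 and 99.3 CPM in C1 and at 41.2, 63.8 and 53.7 CPM in T1. At 24 h it stood at 88.1, 69.3 and 61.6 CPM in C2 and at 43, 45 and 54.4 CPM in T2. Control libraries lay above Yoda1 libraries at both times. PDIA5 fell 1.63-fold at 12 h (log2 fold change -0.70, SE 0.17, adjusted p = 0.029) and 1.54-fold at 24 h (-0.62, SE 0.17, adjusted p = 0.025). The 24 h call was lost without C2 replicate 1, T2 replicate 1 or T2 replicate 2. PDIA2, a pancreas form, stood at 1.27 TPM and was not called.

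DNAJB11, a lumenal J-domain partner of the ER's HSP70, stood at 320, 314 and 327 CPM in C1 and at 250, 262 and 253 CPM in T1, a clear gap. It fell by 0.33 on the log2 scale at 12 h (SE 0.08, adjusted p = 0.024). At 24 h the groups overlapped, at 239, 299 and 268 CPM in C2 and 246, 245 and 241 in T2 (-0.14, adjusted p = 0.24). DNAJC3, another lumenal J-domain protein and a brake on the kinase PERK, stood at 179, 166 and 196 CPM in C1 and 156, 140 and 155 CPM in T1. It stood at 180, 173 and 164 CPM in C2 and 153, 140 and 139 CPM in T2, with Yoda1 libraries lower at both times. DNAJC3 fell at 24 h (-0.26, SE 0.08, adjusted p = 0.038); the same value at 12 h had an adjusted p of 0.064, and 0.001 with the block.

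PPIB, the most abundant of the 76, stood at 446, 530 and 450 CPM in C1 and at 334, 419 and 357 CPM in T1. The T1 libraries were all lower, and PPIB fell by 0.36 on the log2 scale (SE 0.1, adjusted p = 0.048). That call was kept in 4 of the 12 fits that leave out 1 library, and was lost with library size scaling (adjusted p = 0.06) and with no filter (adjusted p = 0.054). At 24 h it stood at 441, 430 and 459 CPM in C2 and 331, 391 and 384 in T2, also apart, with a value of -0.27 (adjusted p = 0.082). Of the ER isomerases of the FKBP family, FKBP10, a collagen chaperone at 220 TPM, had values of -0.21 (adjusted p = 0.19; with the block -0.22, adjusted p = 0.0044) and -0.09. FKBP11 at 183 TPM had 0.06 and 0.05. FKBP7 and FKBP2 had 24 h values of -0.47 (adjusted p = 0.057) and -0.34 (adjusted p = 0.16), with all T2 libraries below C2; with the block FKBP2 was called lower at 12 h (-0.26, adjusted p = 0.025). HSPA13, an HSP70-like protein of the ER, had values of 0.09 and -0.08. The J-domain members DNAJC14, DNAJB9, DNAJC1, DNAJC25, DNAJC16, DNAJB14 and DNAJC22 ran from -0.52 to 0.30 over both times. Both ends belong to DNAJC22, the lowest member at 0.649 TPM, and the others ran from -0.29 to 0.18. Among them DNAJC1 was called lower at 12 h with the block (-0.26, adjusted p = 0.0078).

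In mitochondria, HSPD1 forms the folding chamber that HSPE1 caps, and the 2 genes are neighbours in the RefSeq gene table for the dog assembly UU_Cfam_GSD_1.0. HSPD1 ran from 905 to 1087 CPM over all libraries, with overlapping groups and values of -0.01 and 0.08. HSPE1, at 142 TPM, had values of 0.20 (adjusted p = 0.2; with the block 0.20, adjusted p = 0.0063) and 0.16. The ratio of HSPD1 to HSPE1 in TPM was 6.05 ± 0.337 (SD, n = 3) in C1, 5.24 ± 0.242 in T1, 5.63 ± 0.131 in C2 and 5.35 ± 0.00813 in T2.

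DNAJC11, a J-domain protein of the mitochondrial membranes linked to cristae, stood at 65.2, 68.7 and 61.7 CPM in C2 and at 81.3, 83.3 and 85.4 CPM in T2. The T2 libraries lay well above C2, and DNAJC11 rose by 0.35 on the log2 scale (SE 0.07, adjusted p = 0.0043). At 12 h it stood at 75.4, 66.7 and 69.2 CPM in C1 and 78.5, 80.2 and 77.6 CPM in T1, also apart (0.16, adjusted p = 0.18; with the block adjusted p = 0.039). DNAJC4, DNAJC19, DNAJA3, DNAJC15 and DNAJC30 ran from -0.31 to 0.15 over both times with no call; with the block DNAJC15 was called lower at 12 h (-0.31, adjusted p = 0.021). HSF2BP, the member matched by name only, had values of -0.10 and -0.22.

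**Figure D4:**
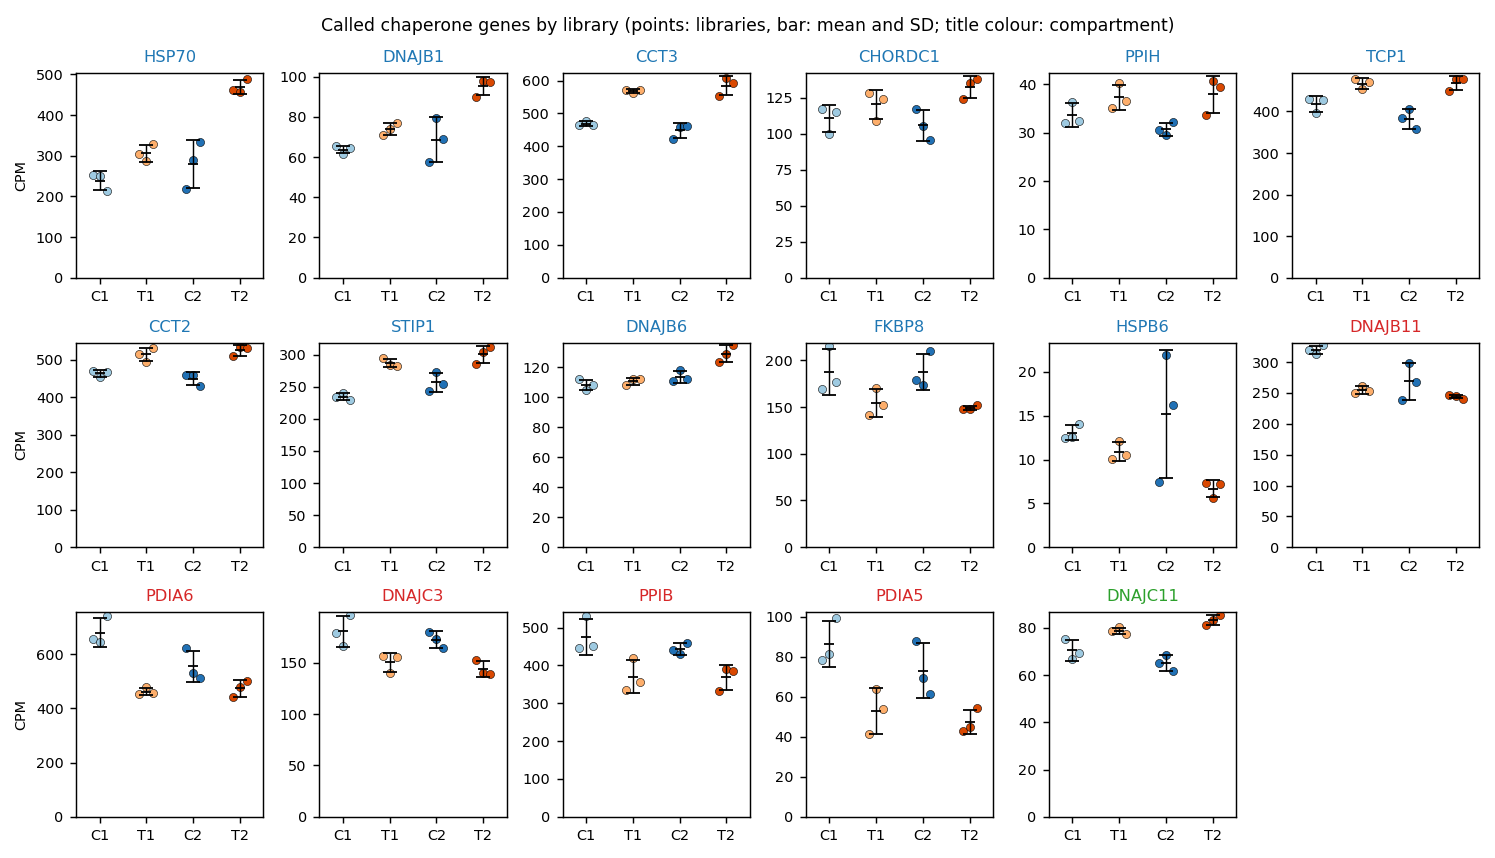
Scaled counts relative to library size (CPM) by library for the 17 members called at 12 h or 24 h, 1 panel per gene with its own axis from 0, points for the 3 libraries of each group, bars for the mean and SD, and title colours for cytosol and nucleus (blue), ER (red) and mitochondria (green). HSP70 stands out in T2 at 457 to 489 CPM, PDIA6 is at 452 to 477 CPM in T1 against 643 to 739 in C1, and HSPB6 shows the wide spread of C2 from 7.41 to 21.9 CPM.

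The third comparison asks whether the response at 24 h differed from that at 12 h, as the interaction of Yoda1 and time. No member was called, while 0.155% of all genes were. At an unadjusted p under 0.05 there were 2 members by edgeR, PDIA6 (difference 0.33, SE 0.13) and HSPB6 (-0.92, SE 0.41), beside 10.2% of all genes; DESeq2 and limma voom also called 0 members, with 6 and 3 at an unadjusted p under 0.05, where they called 228 and 23 of all genes and edgeR called 22. Without C2 replicate 1, HSPB6 was called (-1.25, adjusted p = 0.01). HSP70 had a difference of 0.39 (SE 0.18, adjusted p = 0.49). A gene called at 1 time alone is therefore not shown to have responded differently at the 2 times.

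The fourth comparison sets the 24 h control against the 12 h control. No member was called, beside 0.162% of all genes, and edgeR gave 7 members at an unadjusted p under 0.05 (11.8% of all genes), DESeq2 8 and limma voom 7, both with no call. Of all genes edgeR called 23, DESeq2 258 and limma voom 21. The lowest p-values belonged to one ID of HSPA14 (log2 fold change 0.34, SE 0.10, adjusted p = 0.22), to DNAJB11 (-0.26, SE 0.08, adjusted p = 0.24), to PDIA6 (-0.29, SE 0.09, adjusted p = 0.24) and to HSPA4L (0.55, SE 0.17, adjusted p = 0.26). The libraries of C2 and C1 did not overlap for 4 members higher and 9 lower in C2, where 7.42% and 6.85% of all genes did so. PDIA6 was called lower in C2 without C2 replicate 1 (-0.38, adjusted p = 0.047) and DNAJB11 without C2 replicate 2 (-0.34, adjusted p = 0.032).

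Genes of the same pathways outside the rule are given for context. HSPA8, the constitutive cytosolic HSP70 set aside by name, had 0.24 at 12 h (adjusted p = 0.12) and rose by 0.48 at 24 h (adjusted p = 0.0036), at a mean of 2154 TPM. HSP90B1, the ER form of HSP90, fell by 1.00 at 12 h and 0.72 at 24 h, and PDIA3, a disulfide isomerase, by 0.67 and 0.62. Of 15 further HSP90 and HSP70 co-chaperones none was called at 12 h, and at 24 h 3 rose and 1 fell. TTC1, an HSP70-binding adaptor, rose by 0.40 and RUVBL2, an ATPase of the R2TP complex, by 0.24, while ST13, the HSP70-interacting protein Hip, fell by 0.23. Of 8 partners of TRiC and prefoldin, none was called at 12 h and TXNDC9, a cofactor of TRiC, rose by 0.28 at 24 h.

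Of 13 further genes of ER folding and the unfolded protein response, 3 fell at 12 h and 5 at 24 h, and none rose. HYOU1, a large ER chaperone, fell by 0.52 and MANF, an ER-stress secreted factor, by 0.47 at 12 h. HERPUD1, a part of ER-associated degradation, fell by 0.45 at 12 h and 0.80 at 24 h. CANX, a lectin chaperone, fell by 0.48 and UGGT1, the folding sensor of glycoproteins, by 0.47 at 24 h, the last kept in 2 of 12 fits that leave out 1 library. The medians of these 13 were -0.21 and -0.26.

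Of 9 further mitochondrial folding factors and proteases none was called at 12 h, and 2 rose at 24 h, AFG3L2 and CLPB, each by 0.28. Of 8 further genes known to respond to heat shock, 1 rose and 2 fell at 12 h, and 3 rose and 3 fell at 24 h. ATF3, a stress transcription factor, rose by 0.89 at 12 h, and CRYAB, a small heat shock protein, rose by 0.61 at 24 h. HSPB1, also a small heat shock protein, fell by 0.67 and 0.86, and HSPB8, of the same family, fell by 1.82 at 24 h. SERPINH1, a collagen chaperone of the ER, fell by 0.27 at 12 h. These lists were drawn up with earlier results known, and their counts are read beside the 6.99% and 18.6% of all genes called.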

How the data were processed

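RNA of 12 MDCK libraries was selected for poly(A) and made into stranded libraries, per the labels' protocols. The submitters' processing notes name fastp 0.23.4, STAR 2.7.10b and RSEM 1.3.3; no source used here names the genome build or annotation. The authors deposited expected counts per gene, not normalized (91.1% of values whole, equal to their rounded value), TPM for the same genes, and a sample sheet with no measured values. Between 33.1% and 34.1% of each library's counts fell on IDs with no symbol, which entered the tests but are not named.

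Counts were rounded, filtered by filterByExpr and scaled by TMM in edgeR 4.0.16 (R 4.3.3). One robust quasi-likelihood model of the 4 groups was fitted to all 12 libraries and p-values were adjusted by Benjamini-Hochberg over the 14169 genes tested. Every adjusted p in the text comes from edgeR unless another tool is named. SE is the log2 fold change divided by the square root of F. Genes varied between replicates by 13.3% beyond counting noise. Tested on simulated data for T1 against C1 (14169 genes), the fit recovered 58% of 1.5-fold and 83% of 2-fold changes at 5 false calls. Most called members changed by less than 1.5-fold, and recovery of such smaller changes was not simulated.

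Deviations of same-numbered C1 and T1 libraries correlated at 0.153, 0.283 and 0.115, so the numbers were taken as pairs at 12 h; at 24 h the values were 0.0631, -0.0767 and -0.0841, and no pairing was taken. Libraries of unlike number reached 0.0798 at 12 h, but 0.164 between C2 and T2 and 0.276 between C1 and C2. The pairing rests on the data, since no label ties the numbers to a culture or day. Alternatives were DESeq2 1.42.0, limma 3.58.1 (voom, or log2(TPM + 1) with a pseudocount of 1), other scalings, no filter, 6 libraries alone, the replicate block, and each library left out.

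The members and all gene lists were chosen with earlier results of these data known. Named were HSF1, the 2 highest members by TPM of each class and compartment, called members, up to 3 called genes per other list and time, and the 3 genes on either side of 0.5 TPM. Other members, and the genes set aside by name, are named to account for them or were chosen after their values were seen. RefSeq's table (UU_Cfam_GSD_1.0) held all 73 symbols and was used for names and neighbours only; sequences and promoter motifs were not analysed here.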

Additional observations from a re-analysis of the deposited data

How the results depend on the processing

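No called member named in the report changed direction under the alternatives tried. At 12 h, members called higher numbered 2 in the reported fit, 4 with library size scaling, 4 with DESeq2 and 13 with the replicate block in 6 libraries, and those called lower 4 in the reported fit and 13 with the block. At 24 h, members called higher numbered 10 in the reported fit, 6 with no filter, 3 in 6 libraries and 1 with the replicate block, and those called lower 4 in the reported fit, 2 with library size scaling, 2 with no filter, 1 in 6 libraries and 0 with the block, where same-numbered libraries share only a number. Calls over all genes shifted too: at 12 h DESeq2 called 1646 genes against 990, library size scaling took the share of calls that were higher from 43.1% to 59.4%, and the block called 32.3% of genes. At 24 h the 6 libraries alone called 8.15% of genes (3.77% higher, 4.38% lower) and the block 2.28%, against 18.6%. Library size scaling at 24 h took the share of calls that were higher from 48.3% to 57.1%. The share of all genes called with no filter is not given here. The cause of the shifts in calls over all genes was not tested. Leaving out 1 library gave 0 to 4 higher and 1 to 5 lower at 12 h, 4 to 12 higher and 0 to 6 lower at 24 h, 0 to 1 lower for the difference of responses, and 0 to 1 lower for C2 against C1. The share of all genes called in those fits is not given here. For single named members, the call held in 122 and was lost in 38 of the comparisons with other settings, and held in 161 and was lost in 79 when 1 library was left out. At 24 h DNAJB1 had an adjusted p of 0.051 by edgeR in its 6 libraries alone. With 20709218 to 38889592 counts per library, DNAJC22 and CCT6B, the members under 1 TPM, rest on the fewest counts. A threshold of 1 TPM would have kept 74 of the 76 members.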
